A study of Mus musculus with 13 samples.

Results

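The integrated stress response genes of the liver were compared between WT and Nod2-/- mice in RNA sequencing counts. The set holds 10 genes chosen by name, namely the transcription factor gene Atf4 and its listed relatives and targets Atf5, Atf3, Ddit3, Trib3, Asns, Chac1, Fgf21, Gdf15 and Sesn2. All 10 were found among the 53465 genes of the table, and all 10 were among the 13545 genes with enough counts to be tested. The choice used no measured value, but it was made with earlier results of these data known, and Asns, Fgf21 and Chac1 also stand in gene tables that the study drew from these same mice.

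The mice were of the BALB/c strain, 6 WT and 7 Nod2-/-, and every mouse of either group had received the carcinogen DMBA and a high fat diet. The labels give an age of 30 weeks and the disease state cancer for every mouse, while the study's methods put the diet 1 week longer and the sex as male. In the study, liver tumors were more frequent and larger in Nod2-/- than in WT males so treated. The shared label therefore need not mean an equal tumor burden, and in bulk liver such a difference cannot be told apart from genotype. Each library came from 1 animal. Nod2, an intracellular sensor of bacterial cell wall fragments, was deleted in the whole body, and the WT line went back to purchased founders and was bred in the same room, so genotype and breeding line cannot be told apart.

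In the integrated stress response, kinases that sense amino acid shortage, misfolded protein, haem shortage or double-stranded RNA phosphorylate the translation factor eIF2. General translation then falls while the messenger RNA of ATF4 is translated more, and ATF4 turns on genes for amino acid synthesis and uptake, for feedback and, under lasting stress, for cell death. In liver this pathway is also known to drive the secreted hormones FGF21 and GDF15. RNA counts do not report the translational step.

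Reads counted on genes numbered 14886273 to 20579984 per WT mouse and 13824780 to 19391431 per Nod2-/- mouse. The Nod2 transcript had 0 to 6 counts in each library of both groups, too few to check the genotypes against. Hepatocyte markers summed to 72885 to 105164 CPM (counts scaled to the size of the library) in WT mice and 77972 to 170949 CPM in Nod2-/- mice, with 6 of the 7 listed markers found. Some markers of other cells varied from mouse to mouse. The summed level of 11 liver tumor and progenitor cell markers ran from 44.0 to 570 CPM in WT mice, highest in replicate 3, and from 182 to 815 CPM in Nod2-/- mice, highest in replicate 4. Neutrophil markers, 11 genes, summed to 4.30 to 11.5 CPM in WT and 7.08 to 1052 CPM in Nod2-/- mice (median 30.8). The highest was Nod2-/- replicate 7, with the next, replicate 4, at 95.1 CPM. Lung epithelium markers, 5 genes, summed to 12.9 to 182 CPM in WT and 2.30 to 28.8 CPM in Nod2-/- mice. In bulk liver, fewer cells of a type and less RNA per cell cannot be told apart.

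ATF4 binds a composite site that joins the sites of ATF and C/EBP factors, written here as TGATGNAA and searched on both strands. Of 32851 RefSeq promoter windows, each from 250 bases before to 50 bases after a transcription start, 3.97% held it. The 10 genes had 12 such windows. Counted per gene and not per window, 5 of the 10 genes had a match, namely Asns, Fgf21, Chac1, Atf3 and Trib3. The match began 23 bases before the start in Asns, 110 in Atf3, 139 in Fgf21 and 193 in Chac1, and 14 bases after it in Trib3. The letters were not in the windows of Atf4, Atf5, Ddit3, Gdf15 and Sesn2. The cAMP response element TGACGTCA stood in 1.79% and the ER stress element (ERSE), searched likewise, in 0.119% of all windows, and in 0 of those of the 10 genes. The 250 bases before the start are shown for Asns, Fgf21 and Chac1, the 3 members that stand in the study's tables, from RefSeq on build GRCm38, 5′ to 3′ along the gene, with the match in capitals (on the opposite strand in Fgf21 and Chac1).
Asns chr6:7693210-7693459, minus strand: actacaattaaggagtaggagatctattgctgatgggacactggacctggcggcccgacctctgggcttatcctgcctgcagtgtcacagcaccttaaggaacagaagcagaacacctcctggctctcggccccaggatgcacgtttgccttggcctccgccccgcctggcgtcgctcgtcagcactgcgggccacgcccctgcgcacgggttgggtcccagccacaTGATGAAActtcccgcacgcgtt
Fgf21 chr7:45615491-45615740, minus strand: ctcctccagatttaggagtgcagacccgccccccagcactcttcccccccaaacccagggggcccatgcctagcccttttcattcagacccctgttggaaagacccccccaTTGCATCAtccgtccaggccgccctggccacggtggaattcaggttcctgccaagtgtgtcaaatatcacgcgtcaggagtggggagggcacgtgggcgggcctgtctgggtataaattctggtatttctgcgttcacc
Chac1 chr2:119350992-119351241, plus strand: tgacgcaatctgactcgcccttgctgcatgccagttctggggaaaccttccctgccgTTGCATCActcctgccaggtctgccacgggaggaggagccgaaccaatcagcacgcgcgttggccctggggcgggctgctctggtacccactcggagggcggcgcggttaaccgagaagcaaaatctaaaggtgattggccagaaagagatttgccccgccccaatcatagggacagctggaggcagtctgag

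At 5% FDR, 2 of the 10 genes, Atf5 and Fgf21, were higher in Nod2-/- mice and 0 were lower in edgeR's quasi-likelihood test, with p adjusted by the Benjamini-Hochberg method over all genes tested. Over all genes tested, 0.650% were higher and 0.509% lower at this threshold. At an unadjusted p under 0.05, 5 members passed, 4 higher and 1 lower, against 23.1% of all genes in either direction. With DESeq2's Wald test, the study's tool, 3 members were higher (Atf5, Fgf21 and Asns) and 1 lower (Chac1), where 3.81% of 15892 genes were higher and 3.45% lower. The median log2 fold change of the 10 was 0.51, against 0.02 over all genes tested. Only in Atf5 did the normalised counts of the groups not overlap, which was so, in this direction, for 0.753% of genes.

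**Figure D1:**
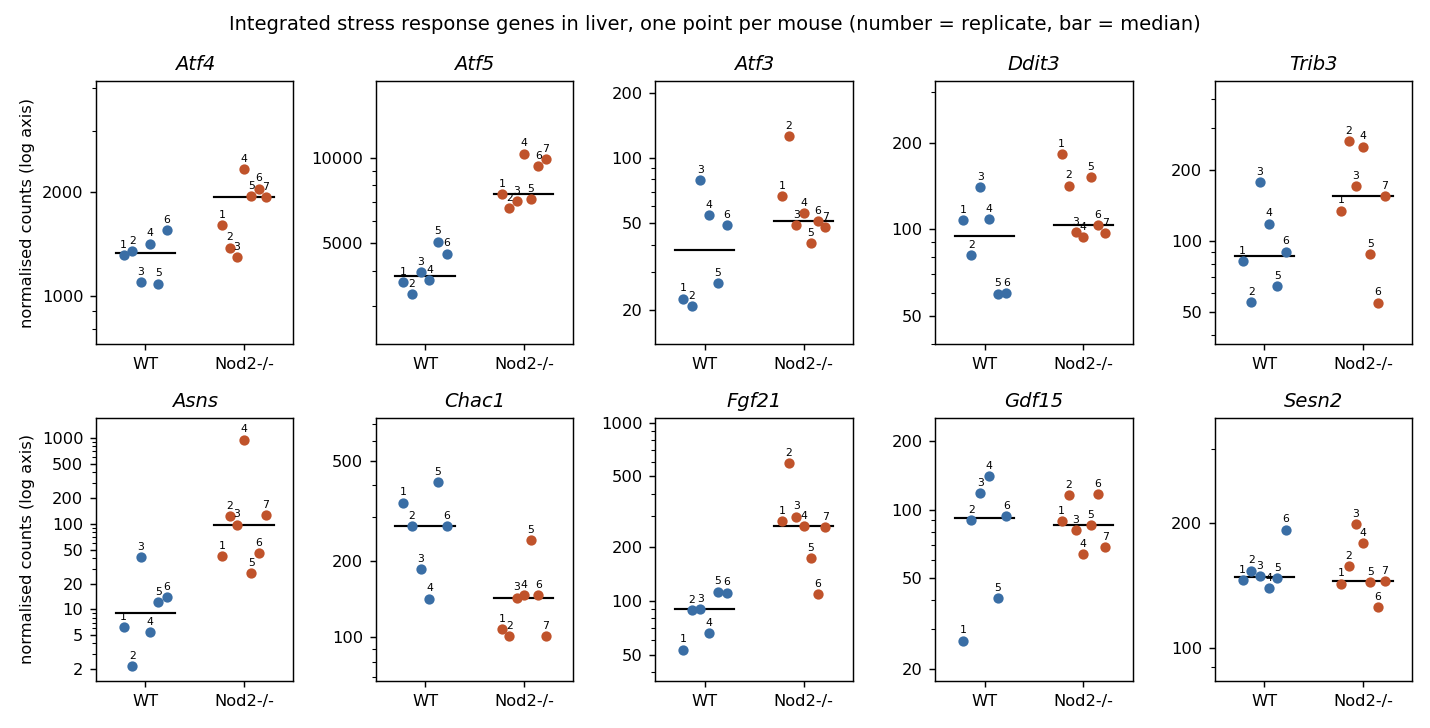
Normalised counts (log axis) of the 10 genes in 6 WT and 7 Nod2-/- mice, with a point and replicate number for each mouse and a bar at each group's median. Atf5 separates the groups, Asns and Fgf21 overlap through 1 Nod2-/- mouse each, Chac1 lies lower in Nod2-/- mice, and Gdf15 and Sesn2 overlap throughout.

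Atf4 encodes the factor at the centre of the response. Its normalised counts, which are counts scaled to the mean library size after TMM normalisation, had a lowest, median and highest value of 1084, 1330 and 1549 in WT mice and 1290, 1936 and 2332 in Nod2-/- mice. In 5 of 7 Nod2-/- mice the level was above every WT mouse, and replicates 2 and 3 lay within the WT range. The log2 fold change was 0.46 with a standard error (SE) of 0.14, which did not pass 5% FDR (adjusted p = 0.0889 by edgeR, 0.0523 by DESeq2, and p = 0.0169 by a two-sided exact permutation test).

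Atf5, a bZIP factor whose translation is controlled like that of ATF4 and which is abundant in liver, showed the clearest difference. Its lowest, median and highest normalised counts were 3312, 3839 and 5074 in WT and 6648, 7438 and 10368 in Nod2-/- mice. The groups did not overlap, since the lowest of the 7 Nod2-/- mice exceeded the highest of the 6 WT mice. The mean was 4054 ± 660 (SD, n = 6) in WT and 8276 ± 1551 (SD, n = 7) in Nod2-/- mice, a 2.04-fold difference (95% confidence interval 1.65 to 2.52) with an adjusted p of 0.00244 by edgeR and the smallest p that an exact permutation test of 6 against 7 mice allows, 0.000583. Atf5 lies on chromosome 7 of GRCm38 (44812256 to 44816658) and overlaps Nup62 and Il4i1 on the opposite strand. The strand setting of the counting is not given in the sources used here. Nup62 had 187 to 427 counts per library and a log2 fold change of -0.18 (SE 0.16, adjusted p = 0.532), and Il4i1 had 5 to 22 counts.

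The stress-induced factors downstream of ATF4 did not pass the test. Atf3, a bZIP factor induced by many stresses, had a lowest, median and highest normalised count of 20.8, 37.8 and 79.5 in WT and 40.4, 51.2 and 126 in Nod2-/- mice, with only Nod2-/- replicate 2 above the WT range. Its log2 fold change was 0.56 (SE 0.35, adjusted p = 0.346 by edgeR). Ddit3, which encodes the cell death-related factor CHOP, had 59.7, 94.4 and 140 in WT and 93.7, 104 and 182 in Nod2-/- mice, and its log2 fold change was 0.42 (SE 0.23, adjusted p = 0.286). Ddit3 overlaps Mars, a methionyl-tRNA synthetase gene on the opposite strand that had a log2 fold change of -0.03 (SE 0.08). Trib3, a pseudokinase that feeds back on ATF4, had 54.8, 86.0 and 177 in WT and 54.6, 155 and 265 in Nod2-/- mice. Its Nod2-/- values ran from below to above the whole WT range, and its log2 fold change of 0.70 (SE 0.35) had an adjusted p of 0.243.

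Asns, which makes asparagine and is a classical ATF4 target, had the largest fitted difference of the 10. Its lowest, median and highest normalised counts were 2.19, 9.15 and 40.7 in WT and 26.4, 97.6 and 963 in Nod2-/- mice. In 6 of 7 Nod2-/- mice Asns was above all WT mice, and replicate 5 lay below WT replicate 3. The spread was wide in both groups, since WT replicate 3 was at 40.7 with the next WT mouse at 13.9, and Nod2-/- replicate 4 at 963 with the next at 126. The medians differed 10.7-fold and the means 15.1-fold. The log2 fold change was 3.87 (SE 0.93), with an adjusted p of 0.0576 by edgeR, which misses the threshold, and 0.00117 by DESeq2, which passes it. The exact permutation test gave p = 0.00291. Without Nod2-/- replicate 4 the log2 fold change was 2.47 (adjusted p = 0.0867), and without WT replicate 3 it was 4.61 (adjusted p = 0.0253). These were also the mice with the highest tumor and progenitor marker sums of their groups, 570 CPM in WT replicate 3 and 815 CPM in Nod2-/- replicate 4. Below replicate 4, the order among Nod2-/- mice did not match. Nod2-/- replicate 1 had the next highest sum (675 CPM) with Asns at 42.3, replicate 2 had 620 CPM with 122, and replicate 7 had 402 CPM with 126. Among WT mice the order differed only between replicates 4 and 1. WT replicates 6, 5, 4, 1 and 2 had 190, 127, 71.3, 45.2 and 44.0 CPM, with Asns at 13.9, 12.2, 5.48, 6.15 and 2.19. WT replicate 3 was also the highest WT mouse for macrophage, stellate and endothelial cell markers, and Nod2-/- replicate 4 the highest of its group for hepatocyte markers. The part of any of these cells in the Asns level was not tested.

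Chac1, an enzyme that degrades glutathione, was the 1 member with a negative log2 fold change. Its lowest, median and highest normalised counts were 143, 276 and 412 in WT and 101, 144 and 243 in Nod2-/- mice. In 3 of 7 Nod2-/- mice Chac1 was below all WT mice, and the other Nod2-/- mice lay within the WT range. The log2 fold change of -0.94 (SE 0.25) did not pass 5% FDR by edgeR (adjusted p = 0.0673) and passed it by DESeq2 (adjusted p = 0.0104). The exact permutation test gave p = 0.0117.

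**Figure D2:**
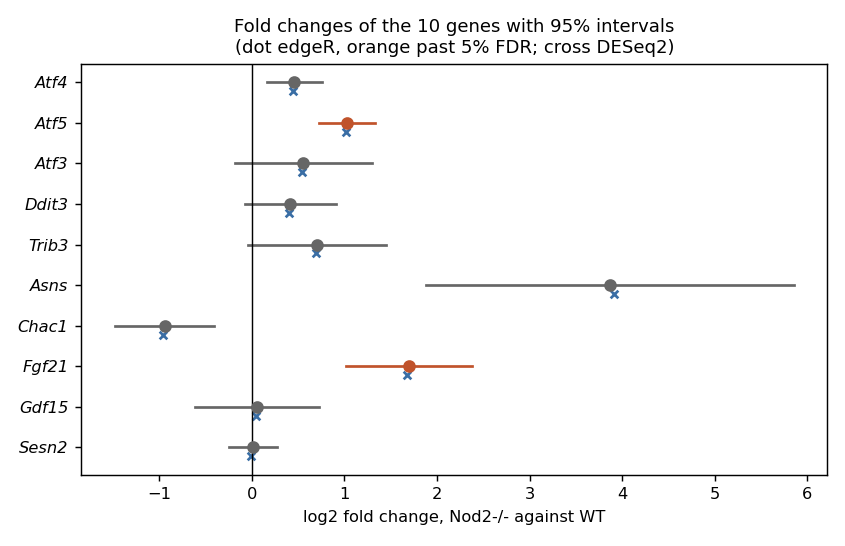
Log2 fold change of each of the 10 genes, Nod2-/- against WT, with dots and 95% intervals from edgeR (orange past 5% FDR) and crosses from DESeq2. The intervals of Atf4, Atf5, Asns and Fgf21 lie above 0, that of Chac1 below 0, and those of the other 5 genes hold 0.

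Fgf21, the liver hormone that acts on fat and brain through KLB and FGF receptors, was 3.24-fold higher in Nod2-/- mice (95% confidence interval 2.02 to 5.20, adjusted p = 0.0261 by edgeR). Its lowest, median and highest normalised counts were 53.3, 89.6 and 113 in WT and 109, 263 and 594 in Nod2-/- mice. In 6 of 7 Nod2-/- mice the level was above all WT mice, while replicate 6 (109) lay within the WT range. Of the 13 fits that each left out 1 mouse, 3 lost the call, those without WT replicate 1 (log2 fold change 1.59, adjusted p = 0.0678), WT replicate 2 (1.70, adjusted p = 0.0727) and WT replicate 4 (1.63, adjusted p = 0.0728). It was also lost with the replicate number as a block (1.58, adjusted p = 0.124). Among the FGF receptor genes in the same liver, Fgfr4 had the lowest p, with a log2 fold change of 0.35 (SE 0.09). It missed the threshold by edgeR (adjusted p = 0.0693) and passed it by DESeq2 (adjusted p = 0.0304). Fgfr2 had 0.35 (SE 0.13, adjusted p = 0.148 by edgeR) and Fgfr1 had 0.34 (SE 0.27, adjusted p = 0.458 by edgeR). The co-receptor gene Klb, named for its role, had 0.12 (SE 0.16, adjusted p = 0.695 by edgeR).

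Gdf15, a stress cytokine that acts on the hindbrain, had 26.7, 91.6 and 140 normalised counts in WT and 63.8, 85.3 and 117 in Nod2-/- mice (lowest, median and highest). All Nod2-/- mice lay within the WT range, and the 95% interval of the log2 fold change of 0.06 ran from -0.61 to 0.73. Sesn2, which links leucine supply to mTORC1, had 139, 148 and 192 in WT and 125, 145 and 198 in Nod2-/- mice. Its log2 fold change of 0.01, which turned negative with DESeq2 and with no filter on low counts, had a 95% interval from -0.24 to 0.27. Gdf15 and Sesn2 had adjusted p-values of 0.928 and 0.962 by edgeR, and differences inside these intervals were not excluded by these data.

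Levels between genes were compared per kilobase of exon. In WT mice the mean normalised count per kilobase was 2034 for Atf5, 552 for Atf4, 167 for Chac1 and 91.5 for Fgf21. It was 54.2 for Ddit3, 46.0 for Trib3, 45.9 for Gdf15 and 44.4 for Sesn2, an order that was not resolved, as these 4 genes varied between WT mice by 12.4% to 51.7% (coefficient of variation). Atf3 (19.6) and Asns (4.91) were lowest. In Nod2-/- mice Asns stood at 74.4 and Fgf21 at 297 per kilobase.

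**Figure D3:**
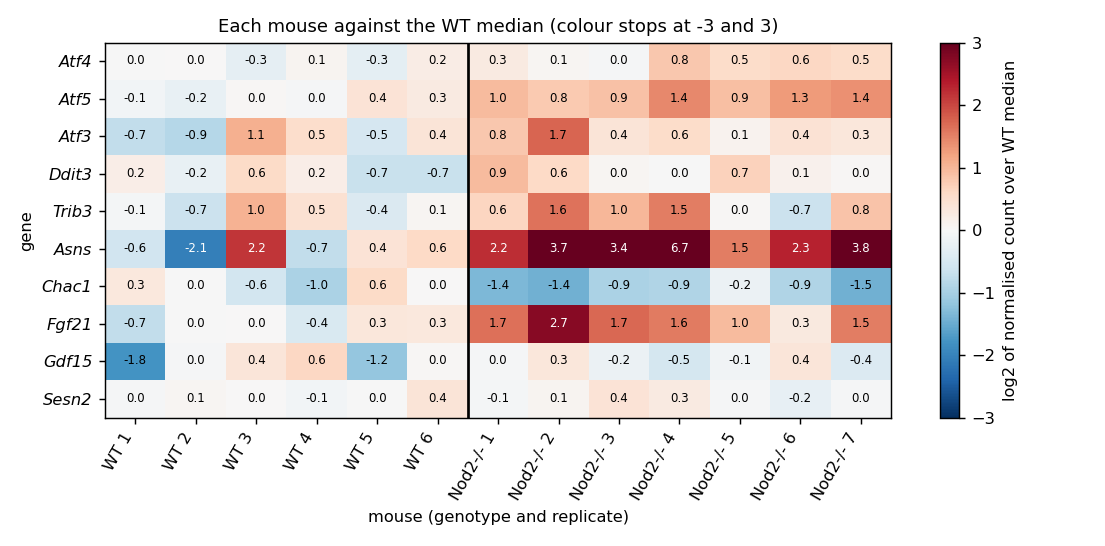
Log2 of each mouse's normalised count over the WT median, for the 10 genes (vertical axis) in 6 WT and 7 Nod2-/- mice (horizontal axis), with colour ending at -3 and 3. Nod2-/- replicate 4 holds the highest Asns value and Nod2-/- replicate 2 the highest Atf3, Trib3 and Fgf21 values, while WT replicate 3 is the highest WT mouse for Atf3, Ddit3, Trib3 and Asns.

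The members did not rise and fall together from mouse to mouse in a way that passed correction. After genotype means were removed, 24 of the 45 gene pairs had a positive and 21 a negative correlation of log2 CPM across the 13 mice, and 0 pairs had an adjusted p under 0.05 in a permutation test with 100000 resamples within genotype (lowest adjusted p = 0.242), while 7 had an unadjusted p under 0.05. The highest Pearson's r was that of Trib3 with Asns (r = 0.72, rho = 0.72, permutation p = 0.0108 and 0.0106). Without the 2 mice farthest from the median of Trib3, r was 0.69. Atf3 with Trib3 had the highest Spearman's rho (0.74, permutation p = 0.00614), with r = 0.69 (permutation p = 0.00814), which was 0.45 without the 2 farthest mice, and Atf3 with Chac1 gave r = -0.69, which was -0.66. The most extreme mice differed by gene. WT replicate 3 was the highest WT mouse in 4 of the 10 genes (Atf3, Ddit3, Trib3 and Asns), and Nod2-/- replicate 4 was the highest of its group in 3 (Atf4, Atf5 and Asns) and the lowest in 2 (Ddit3 and Gdf15).

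Over all genes tested, the profile most like that of Asns across the 13 mice was Gtpbp3 (Spearman's rho = 0.978), followed by Foxp4 (0.973) and by Adam23, Fam49b and Gucy2c (0.962 each). For Fgf21 these were Agap2 and Shank2 (0.890 each) and Arsg, D830044D21Rik and Wfdc12 (0.885 each), and for Chac1 they were Ipmk (0.868), Cab39l (0.863), Hnrnpc (0.857), Gm2814 (0.852) and Ahctf1 (0.835). These are descriptions over 13 mice that share the genotype difference and the depth of their libraries.

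The remaining genes of the pathway were taken as 6 lists of 73 genes, of which 65 were tested. At 5% FDR by edgeR, 1 was higher (Mthfd2) and 1 lower (Eif2ak1), and the median log2 fold change of the 65 was 0.01. DESeq2 placed 5 higher and 2 lower. Over all genes, 0.650% were higher and 0.509% lower by edgeR, and 3.81% and 3.45% by DESeq2. Of the 15 genes for eIF2 kinases, phosphatases and subunits, Eif2ak1, which encodes the haem-regulated kinase HRI, was lower. Its lowest, median and highest normalised counts were 721, 752 and 789 in WT and 563, 586 and 691 in Nod2-/- mice, with no overlap (log2 fold change -0.30, SE 0.07, adjusted p = 0.0490). No overlap in this direction was seen in 93 of the 13545 genes tested. The Eif2ak1 call was lost with the replicate block, with no filter on low counts and with at least 10 counts in every mouse. It was also lost with WT replicate 3 and Nod2-/- replicate 7 both left out. When each mouse was left out in turn, the call held only without WT replicate 3, Nod2-/- replicate 1 or Nod2-/- replicate 3. Of 8 related bZIP factors, 5 were tested by edgeR and 0 passed, and Nfe2l2 had the lowest p (log2 fold change 0.32, adjusted p = 0.158). Nupr1, a small stress-induced regulator with too few counts for the edgeR filter, was higher by DESeq2 (log2 fold change 1.54, adjusted p = 0.0325), with 5 of 7 Nod2-/- mice above all WT mice.

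The amino acid synthesis and one-carbon genes had 14 tested members with a median log2 fold change of 1.04, of which 11 were positive and 1 passed. That gene was Mthfd2, a mitochondrial folate enzyme, at 21.5, 30.8 and 45.03 in WT and 48.6, 68.3 and 98.7 in Nod2-/- mice (lowest, median and highest). The groups did not overlap, which was so in this direction for 0.753% of genes tested. Its log2 fold change was 1.18 (SE 0.24, adjusted p = 0.0345). Its call was lost with the replicate block, without WT replicate 1, 2, 4 or 5, and without Nod2-/- replicate 4, 6 or 7. Mthfd1l (a further mitochondrial folate enzyme, log2 fold change 1.18, SE 0.36, adjusted p = 0.0903), Pck2 (mitochondrial phosphoenolpyruvate carboxykinase, log2 fold change 1.55, SE 0.42, adjusted p = 0.0692) and Shmt2 (mitochondrial serine hydroxymethyltransferase, -0.36, SE 0.10, adjusted p = 0.0769) missed the threshold by edgeR and passed it by DESeq2 (adjusted p = 0.0215, 0.00717 and 0.0127). Mthfd2, Mthfd1l, Pck2, Got1 and Phgdh, and Nupr1 of the bZIP list, also stand in the study's tables from these mice.

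**Figure D4:**
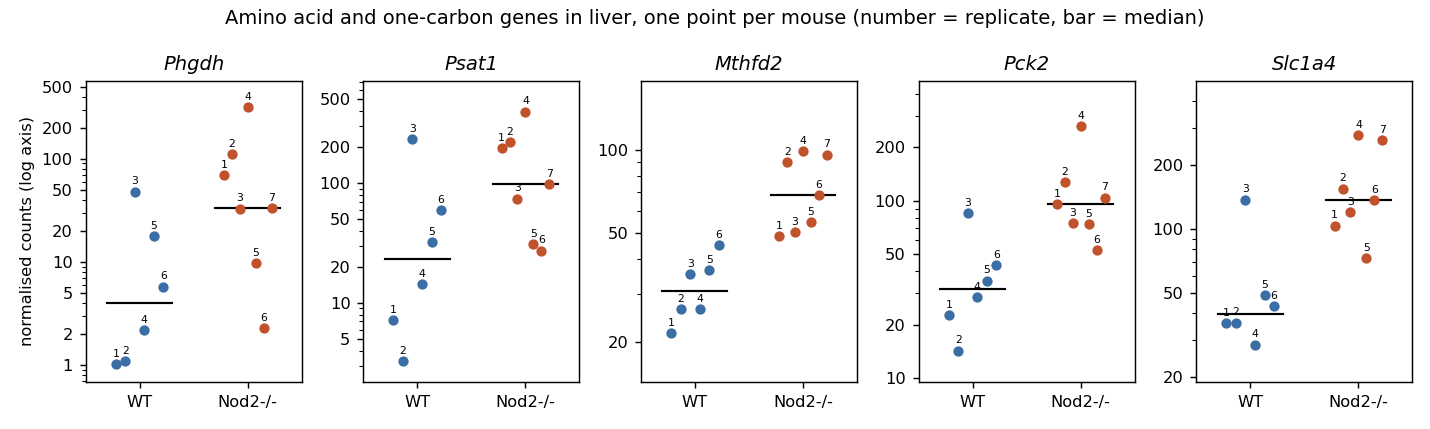
Normalised counts (log axis) of Phgdh, Psat1, Mthfd2, Pck2 and Slc1a4 in each of 6 WT and 7 Nod2-/- mice, with the replicate number at each point and a bar at each group's median. Only Mthfd2 separates the groups, and WT replicate 3 is the highest WT mouse in Phgdh, Psat1, Pck2 and Slc1a4.

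Phgdh, the first enzyme of serine synthesis and like Psat1, the next enzyme, a gene named here after its values were seen, had 1.03, 3.96 and 47.9 normalised counts in WT and 2.28, 33.3 and 315 in Nod2-/- mice, with WT replicate 3 the highest WT mouse (log2 fold change 2.66, SE 0.99, adjusted p = 0.134). The 12 aminoacyl-tRNA synthetase genes had log2 fold changes between -0.25 (Eprs) and 0.33 (Cars) and 0 past 5% FDR. Of 10 amino acid transporter genes, 8 were tested and 0 passed. The neutral amino acid transporter Slc1a4 came closest, with a log2 fold change of 1.54 (SE 0.40, adjusted p = 0.0656), and Slc1a5 had 1.09 (SE 0.36, adjusted p = 0.106). Of 14 other ATF4 or CHOP targets, 11 were tested and 0 passed.

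Without WT replicate 3, 11 of the pathway genes passed 5% FDR by edgeR in place of 2, with 8 higher and 3 lower, while 697 genes of the whole table were then higher and 459 lower in place of 88 and 69. The 8 included Slc1a4 (log2 fold change 2.05, adjusted p = 0.00777), Pck2 (1.94, adjusted p = 0.0188), Phgdh (3.86, adjusted p = 0.0433) and Psat1 (2.62, adjusted p = 0.0492). The 3 lower genes were Eif2ak1, Nars2 and Shmt2. With WT replicate 3 and Nod2-/- replicate 7 both left out, 4 pathway genes were higher (Mthfd2, Pck2, Slc1a4 and Tnfrsf10b) and 0 lower, where 408 genes of the whole table were higher and 159 lower.

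**Figure D5:**
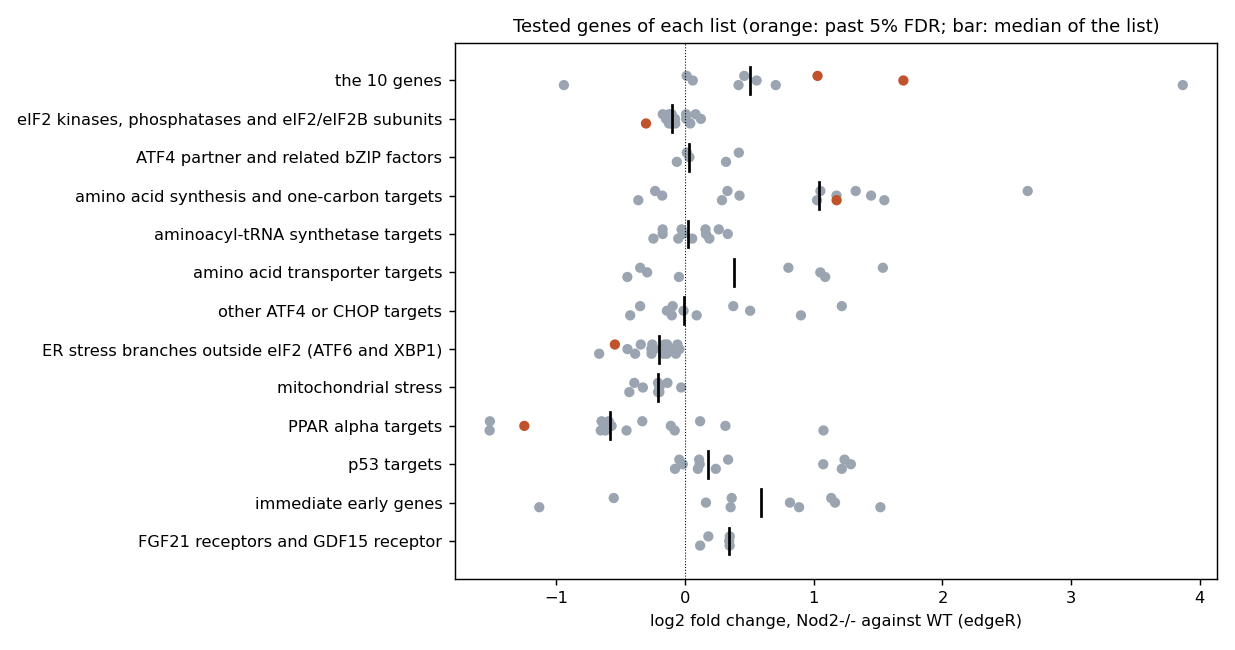
Log2 fold changes (Nod2-/- against WT, edgeR) of the tested genes of each list, with a dot for each gene (orange past 5% FDR) and a bar at the median of each list. The amino acid synthesis list has a median of 1.04, the tRNA synthetase list lies close to 0, and the 18 ER stress genes of the ATF6 and XBP1 branches all lie below 0.

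Neighbouring stress programmes were described in the same fit. Over all genes tested, 6457 of 13545 had a negative log2 fold change, and 23.1% had an unadjusted p under 0.05 by edgeR. At 5% FDR, 0.650% were higher and 0.509% lower by edgeR, and 3.81% and 3.45% by DESeq2. All 18 tested genes of the ATF6 and XBP1 branches of the ER stress response, which act in parallel to eIF2, were negative (median -0.20). Of these, 2 had an unadjusted p under 0.05 by edgeR, and 1 passed 5% FDR. This was Herpud1, a gene of ER-associated protein degradation, with 7056, 8027 and 10627 normalised counts in WT and 5046, 5673 and 7395 in Nod2-/- mice (lowest, median and highest). In 6 of 7 Nod2-/- mice it was below all WT mice (log2 fold change -0.55, SE 0.12, adjusted p = 0.0490). All 9 mitochondrial stress genes had negative values (median -0.21), of which 4 had an unadjusted p under 0.05 by edgeR. At 5% FDR 0 of them passed by edgeR and 3 by DESeq2, the protein folding genes Hspd1 (adjusted p = 0.00606), Dnaja3 (0.0263) and Trap1 (0.0358). Of 16 targets of PPAR alpha, the fasting regulator that is also known to control Fgf21, 13 had negative values (median -0.58) and 1 passed, the peroxisomal fatty acid oxidation gene Ehhadh (log2 fold change -1.25, SE 0.26, adjusted p = 0.0386). DESeq2 placed 3 of the 16 lower, Ehhadh among them. Of 12 p53 targets, 10 tested immediate early genes and 5 tested FGF receptor and co-receptor genes, 0 passed by edgeR. By DESeq2, 0 of the p53 targets passed, and 3 immediate early genes were higher, Ier3 (adjusted p = 0.00485), Junb (0.0162) and Klf6 (0.0485), as was Fgfr4 of the receptors.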

How the data were processed

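Polyadenylated liver RNA was sequenced from 6 WT and 7 Nod2-/- mice, 1 library per mouse, with strand-specific libraries per the labels. Per the submitters' processing notes, Trimmomatic 0.33 was used for trimming and TopHat2 2.1.1 for mapping, on GRCm38. The authors deposited raw counts per gene and mouse, without normalization. The counting program, its strand setting and its use of reads that map to several places are not given in the sources used here, so overlapping genes are uncertain. A single entry with no gene identifier held no values and was left out. Gene positions and exon lengths come from GENCODE release M21, and promoter windows from RefSeq.

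The filter filterByExpr left 13545 genes, which held 99.9% of counts. These were fitted in edgeR 4.0.16 (R 4.3.3) by glmQLFit after TMM normalization, and genotype was tested by glmQLFTest, two-sided and without covariates, with Benjamini-Hochberg adjustment at 0.05. Standard errors are the log2 fold change over the square root of F. Single genes were also compared with exact permutation tests of mean log2 CPM (prior count 2) over all 1716 splits of the mice. Alternatives were DESeq2 1.42.0 with default settings, voomWithQualityWeights of limma 3.58.1, RLE normalization, library sizes without the 20 most abundant genes, no filter, a minimum of 10 counts per mouse, a block for the replicate number, leaving out each mouse in turn, and leaving out WT replicate 3 and Nod2-/- replicate 7 together. The fits were tested on simulated data. No pair of libraries of a genotype agreed within sampling noise (36 pairs), and litters are not given in the sources used here, so p-values measure the spread between these mice.

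The named genes are the 10 members, the pathway list genes past 5% FDR with up to 3 more per list of the lowest p, and the 5 genes most like Asns, Chac1 and Fgf21. The members and lists were chosen with earlier results of these data known. Results for some single genes of the lists are not reported here.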

Additional observations from a re-analysis of the deposited data

Results flagged for a closer look

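In 28 groups of values checked, a single mouse lay far from the rest of its genotype in 7. Chance alone would do so in about 1 group in 20 if values were normally distributed. The counts were not log-transformed here, and in all 7 the mouse was the highest of its group. The 1 in 20 can therefore not be taken as the rate for these values. Asns was at 963 normalised counts in Nod2-/- replicate 4 (next mouse 126) and at 40.7 in WT replicate 3 (next 13.9). Fgf21 was at 594 (next 298) and Atf3 at 126 (next 66.6) in Nod2-/- replicate 2. Chac1 was at 243 (next 148) and Herpud1 at 7395 (next 5905) in Nod2-/- replicate 5, in both cases the Nod2-/- mouse nearest to the WT levels. Sesn2 was at 192 in WT replicate 6 (next 153.5).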

How the results depend on the processing

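The count of members past 5% FDR was 2, and it was 4 with DESeq2, 4 with voomWithQualityWeights, 1 with the replicate block and 1 to 4 when each mouse was left out in turn (1 without WT replicate 1, 2 or 4, and 4 without WT replicate 3 or Nod2-/- replicate 5). Over the whole table the calls moved too, from 88 higher and 69 lower to 605 and 549 with DESeq2 and 519 and 324 with voomWithQualityWeights. They were 17 and 18 with the block, 21 and 20 without WT replicate 1, and 697 and 459 without WT replicate 3. Atf5 passed in all of these fits and Fgf21 in 10 of the 13 that left out a mouse. Fgf21 had a log2 fold change of 1.58 with the block (adjusted p = 0.124). The other pathway genes past 5% FDR numbered 2, and 7 with DESeq2, 7 with voomWithQualityWeights, 1 with no filter, 1 with at least 10 counts in every mouse, 0 with the block, 4 without WT replicate 3 and Nod2-/- replicate 7 together, and 0 to 11 when each mouse was left out. Members whose groups did not overlap numbered 1, and 2 without those 2 mice together, and 1 to 2 when each mouse was left out. Leaving out a mouse makes non-overlap easier for any gene. The share over all genes is not given for these smaller sets, so the rise cannot be read as a result about the members. Same-numbered mice did not deviate together (correlations -0.30 to 0.30 over 6 numbers), so the number was not read as a pairing. Sesn2 changed sign with DESeq2 (-0.0073) and with no filter (-0.0058), and over fits without 1 mouse it ran from -0.053 to 0.086 and Gdf15 from -0.13 to 0.26. The cause of these changes was not tested. RLE normalization and removal of the 20 most abundant genes changed no call of a member. At this depth Asns rested on few counts in most WT mice, and intervals cover only the spread between these mice.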
